A study of Mus musculus with 6 samples.

Results

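A set of 10 mouse genes that carry nitrogen into urea were followed in the livers of WT mice and of CgA-KO mice, which lack chromogranin A (CgA), the prohormone made by neuroendocrine cells and encoded by Chga. They are defined by their symbols: the urea cycle enzymes Nags, Cps1, Otc, Ass1, Asl and Arg1, the mitochondrial carriers Slc25a15 and Slc25a13, and the ammonia-releasing enzymes Glud1 and Gls2. All 10 were present among the 32212 rows of the deposited table of gene counts, and all 10 passed the filter on low counts. The 6 libraries, one per mouse, came from 3 WT and 3 CgA-KO male C57BL/6 mice aged 2 yr and kept on normal chow, and poly(A)-selected RNA of whole liver was sequenced. The hour of collection, the feeding state and the design of the deleted allele are not given in the sources used here.

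The liver is the organ that turns toxic ammonia into urea. The cycle starts in the mitochondria, where CPS1 joins ammonia and bicarbonate under the control of N-acetylglutamate, the product of NAGS, and OTC then makes citrulline. Citrulline leaves the mitochondria in exchange for ornithine through the carrier SLC25A15, and ASS1, ASL and ARG1 finish the cycle in the cytosol, with aspartate supplied through SLC25A13. Glutaminase 2 (GLS2) and glutamate dehydrogenase (GLUD1) set ammonia free. Periportal hepatocytes, which receive blood from the gut first, hold most of this machinery, while pericentral hepatocytes around the draining vein catch the remaining ammonia with glutamine synthetase (Glul).

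Total counts ran from 10558616 to 31087453 per library, with WT replicate 1 the shallowest. The counts behind a single value of the 10 genes ran from 481 to 96116. Chga had 0 counts in every library of both genotypes and therefore gave no check of the genotype labels. Levels are given as CPM, counts relative to the effective library size after TMM normalization, ± SD over 3 livers, and genotypes were compared by edgeR's quasi-likelihood test with p-values adjusted by the Benjamini-Hochberg method over the 13867 genes tested. A log2 fold change (log2FC) above 0 means a higher level in CgA-KO livers. The 11 pan-hepatocyte markers found in the table, Alb among them, summed to between 52280 and 100946 CPM per library, and edgeR called 0 of them at an adjusted p-value under 0.05 and found 1 under 0.05 before adjustment.

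None of the 10 genes differed between the genotypes at an adjusted p-value under 0.05, against 12.4% of all genes tested (8.6% higher and 3.84% lower in CgA-KO livers). By edgeR's quasi-likelihood test, 3 of the 10 had an unadjusted p-value under 0.05, as did 4032 of the 13867 genes tested. DESeq2 called 2 of the 10, and 2592 of the 19693 genes in its fit. Any gene to which DESeq2 gave no adjusted p-value counts there as not called, so its share is not on the same base as that of edgeR. Limma-voom called 0 of the 10, and 1820 of 13867 genes. The livers of the genotypes did not overlap in 5 of the 10, where such a separation was seen in 33.6% of all genes tested. Of these 5, Asl and Slc25a15 lay higher in CgA-KO livers, and Otc, Slc25a13 and Glud1 lay lower. The median log2FC of the 10 was -0.029, with 5 above 0 and 5 below, and that over all genes tested was -0.0075. In a whole-liver sample, fewer hepatocytes and less RNA per hepatocyte cannot be told apart.

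**Figure D1:**
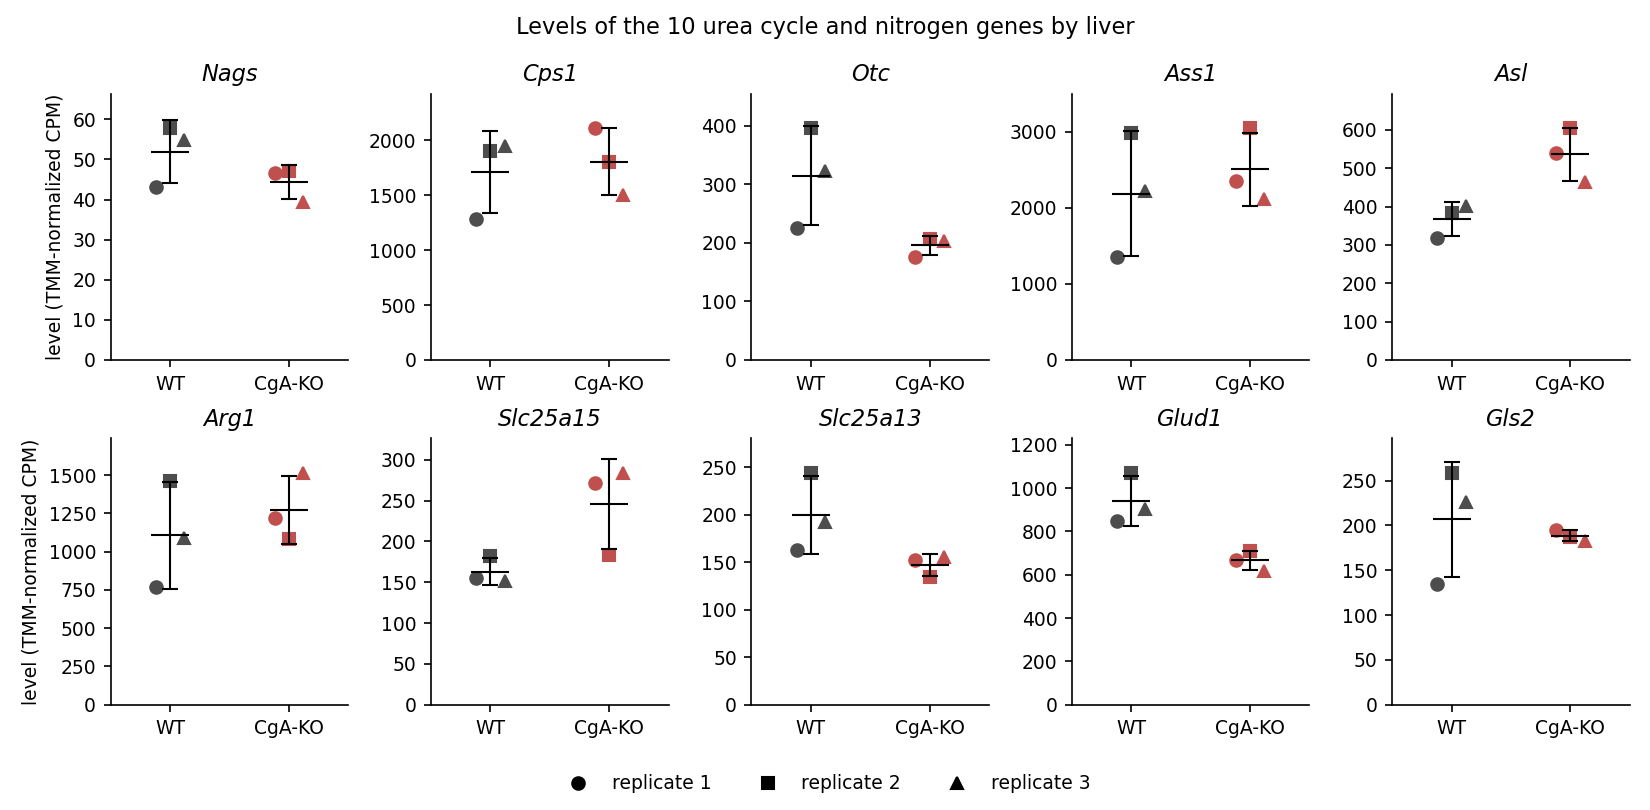
Level of each of the 10 genes (y axis, TMM-normalized CPM, from 0) in the 3 WT and the 3 CgA-KO livers, one symbol per replicate; bars give the mean ± SD. The genotypes separate for Otc, Asl, Slc25a15, Slc25a13 and Glud1, by the narrowest margin for Slc25a15 (182 against 183 CPM), and overlap for the other 5.

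Promoter sequences of RefSeq (GRCm38.p6, 250 bases before to 50 after a start site) were matched by symbol for 6 of the 10 genes, in 7 windows, and not for Cps1, Asl, Arg1 and Gls2. Those of Otc and both carriers are shown. These genes handle ornithine, citrulline or aspartate inside the mitochondria (Otc) or across their inner membrane (the carriers), and did not overlap between the genotypes. Capitals mark the letters CAAAG (core of a binding site of HNF4), TGACG (core of a CREB site) and CCAAT on either strand, the ones found here among 5 motifs searched. TTGCNNAA (a C/EBP site) and TATAAA were in none of the 7 windows. The windows are Otc, chrX:10252055-10252354 on the plus strand, Slc25a13, chr6:6217124-6217423 on the minus strand, and Slc25a15, chr8:22398572-22398871 on the minus strand. The other window of Slc25a15, chr8:22398228-22398527 on the minus strand, is not shown.
Otc: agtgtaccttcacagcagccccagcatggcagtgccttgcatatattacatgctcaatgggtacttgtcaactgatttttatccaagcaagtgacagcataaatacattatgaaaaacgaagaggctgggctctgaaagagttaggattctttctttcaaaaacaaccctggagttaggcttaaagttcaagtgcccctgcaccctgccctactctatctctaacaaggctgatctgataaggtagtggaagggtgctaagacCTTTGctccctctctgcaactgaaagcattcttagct
Slc25a13: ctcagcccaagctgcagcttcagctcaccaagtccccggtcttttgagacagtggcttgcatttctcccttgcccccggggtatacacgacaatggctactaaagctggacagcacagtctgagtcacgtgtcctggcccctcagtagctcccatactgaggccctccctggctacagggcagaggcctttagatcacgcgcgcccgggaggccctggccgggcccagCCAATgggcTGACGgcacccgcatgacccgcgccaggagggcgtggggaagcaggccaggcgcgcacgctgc
Slc25a15: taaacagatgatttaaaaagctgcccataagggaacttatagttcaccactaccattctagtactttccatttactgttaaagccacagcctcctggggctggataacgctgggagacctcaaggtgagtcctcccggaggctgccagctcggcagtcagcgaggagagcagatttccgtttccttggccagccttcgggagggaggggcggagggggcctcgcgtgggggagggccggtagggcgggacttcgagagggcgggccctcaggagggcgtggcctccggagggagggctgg

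Otc had the AT-richer window with 44.3% G and C, against 65% for Slc25a13 and 60.7% for Slc25a15, and a median of 52.7% over 32851 promoter windows of the same length. Otc held CAAAG in reverse at position 14 after the start, Glud1 held it at -110 and Nags at -202, and 53.9% of all windows held it at least once. TGACG was found at -13 in Slc25a13 and, in reverse, at 32 in Nags, and in 20.8% of all windows. CCAAT was found at -22 in Slc25a13 and in 37.4% of all windows, TTGCNNAA in 10.8% and TATAAA in 13.6%. Neither window of Slc25a15 and not that of Ass1 held any of the 5. These letters describe the windows only.

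Otc, which encodes the enzyme that joins carbamoyl phosphate to ornithine, lay at 226, 396 and 323 CPM in WT replicates 1, 2 and 3, and at 177, 207 and 203 CPM in CgA-KO replicates 1, 2 and 3. Every CgA-KO liver was below every WT liver, and the CgA-KO livers were close to each other while WT replicate 1 stood nearest to them. The means were 315 ± 85.1 and 196 ± 16.5 CPM (SD, n = 3 per genotype), which gave a log2FC of -0.69 (standard error (SE) 0.249, edgeR adjusted p = 0.106) with a 95% interval from -1.25 to -0.12. DESeq2 called it (-0.71, adjusted p = 0.0384), and so did edgeR without WT replicate 1 (-0.84, adjusted p = 0.0387). In GRCm38 Otc spans chromosome X from 10252305 to 10321024.

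Cps1 and Nags, the first step of the cycle and the enzyme that makes its obligate activator, overlapped between the genotypes. Cps1 was at 1280, 1902 and 1950 CPM in WT livers and at 2110, 1799 and 1501 CPM in CgA-KO livers, in the order of the replicates. Its log2FC was 0.076 (SE 0.280, edgeR adjusted p = 0.890), with an interval from -0.56 to 0.71 that leaves out a change of 2-fold either way. Nags, the least abundant of the 10, was at 43.1, 57.8 and 54.9 CPM in WT, and at 46.5, 47.1 and 39.5 CPM in CgA-KO livers. Its log2FC of -0.23 (interval from -0.64 to 0.18, edgeR adjusted p = 0.448) turned to 0.061 with library size alone and to 0.031 with scaling to the pan-hepatocyte markers. Cps1 spans chromosome 1 from 67123026 to 67231259 and Nags chromosome 11 from 102145513 to 102149477 (GRCm38). Nags shares 443 exonic bases with an annotated antisense gene, and how the counting treated strand is not given in the sources used here.

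Among the cytosolic enzymes, Asl, which splits argininosuccinate into arginine and fumarate, was the one without overlap between the genotypes. It was at 319, 384 and 401 CPM in WT replicates 1, 2 and 3 and at 539, 604 and 464 CPM in CgA-KO replicates 1, 2 and 3. All CgA-KO livers exceeded all WT livers, with the gap lying between 401 and 464 CPM. The means of 368 ± 43.3 and 536 ± 70.1 CPM gave a log2FC of 0.54 (SE 0.222, edgeR adjusted p = 0.143), or 1.46-fold, with an interval from 0.042 to 1.05. Fits lacking a single library gave values between 0.48 and 0.66, none of them called. It was called with library size alone (0.82, edgeR adjusted p = 0.0327), a scaling that moved the median of all genes up by 0.27. In GRCm38 Asl spans chromosome 5 from 130011258 to 130029247.

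Ass1, which makes argininosuccinate from citrulline and aspartate, was the most abundant of the 10. Its levels of 1350, 2988 and 2221 CPM in WT and 2360, 3048 and 2118 CPM in CgA-KO livers overlapped, with WT replicate 1 lowest of all. The log2FC was 0.20 (SE 0.340, interval from -0.57 to 0.97, edgeR adjusted p = 0.747), and without WT replicate 1 it was -0.016. Arg1, the arginase that releases urea, was at 767, 1461 and 1091 CPM in WT, and at 1219, 1082 and 1514 CPM in CgA-KO livers, again with overlap and with WT replicate 1 lowest. Its log2FC was 0.20 (SE 0.299, interval from -0.48 to 0.88, edgeR adjusted p = 0.704). Both genes are also expressed by activated macrophages, and Kupffer cell and macrophage markers were higher in CgA-KO livers (values are given with the marker lists). Ass1 spans chromosome 2 from 31470207 to 31520672 and Arg1 chromosome 10 from 24915221 to 24927484 (GRCm38). The part of these cells in the levels of Ass1 and Arg1 was not tested.

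The carriers lay on opposite sides of 0, and neither was called. Slc25a15, the ornithine and citrulline carrier of the inner mitochondrial membrane, was at 155, 182 and 152 CPM in WT, and at 272, 183 and 284 CPM in CgA-KO livers, in the order of the replicates. CgA-KO replicates 1 and 3 were well above the WT range, and CgA-KO replicate 2 was level with the highest WT liver, at a gap within the counting error of their 5769 and 4269 counts. The means of 163 ± 16.3 and 246 ± 55.1 CPM gave a log2FC of 0.59 (SE 0.232, edgeR adjusted p = 0.129), or 1.51-fold, with an interval from 0.069 to 1.12. It was 0.81 without CgA-KO replicate 2 (edgeR adjusted p = 0.0507), and with library size alone it was called (0.87, adjusted p = 0.0372).

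Slc25a13 encodes citrin, the carrier that brings mitochondrial aspartate to ASS1. It was at 163, 244 and 192 CPM in WT, and at 152, 134 and 156 CPM in CgA-KO livers. All CgA-KO livers were lower, with a narrow gap between 156 CPM in the highest of them and 163 CPM in the lowest WT liver. The means of 200 ± 41.1 and 148 ± 11.7 CPM gave a log2FC of -0.44 (SE 0.217, interval from -0.93 to 0.054, edgeR adjusted p = 0.220). Slc25a15 lies on chromosome 8 of GRCm38 from 22375551 to 22398597, and Slc25a13 on chromosome 6 from 6041218 to 6217173.

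Glud1, which frees ammonia from glutamate in the mitochondria, was at 846, 1070 and 905 CPM in WT, and at 667, 710 and 619 CPM in CgA-KO livers. The genotypes did not overlap, with means of 940 ± 116 and 666 ± 45.5 CPM, a log2FC of -0.50 (SE 0.225, interval from -1.01 to 0.011, edgeR adjusted p = 0.180). DESeq2 called it (-0.52, adjusted p = 0.0440). Gls2, the liver glutaminase of periportal cells, was at 135, 258 and 226 CPM in WT, and at 195, 187 and 183 CPM in CgA-KO livers, and the WT range enclosed all 3 CgA-KO livers. Its log2FC was -0.13 (SE 0.260, interval from -0.72 to 0.45, edgeR adjusted p = 0.778), and it turned to 0.18 with library size alone, to 0.17 with the pan-hepatocyte scaling and to 0.056 without WT replicate 2. Glud1 spans chromosome 14 from 34310727 to 34345265 and Gls2 chromosome 10 from 128194457 to 128210004 (GRCm38), where Gls2 shares 97 exonic bases with Spryd4 on the opposite strand.

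**Figure D2:**
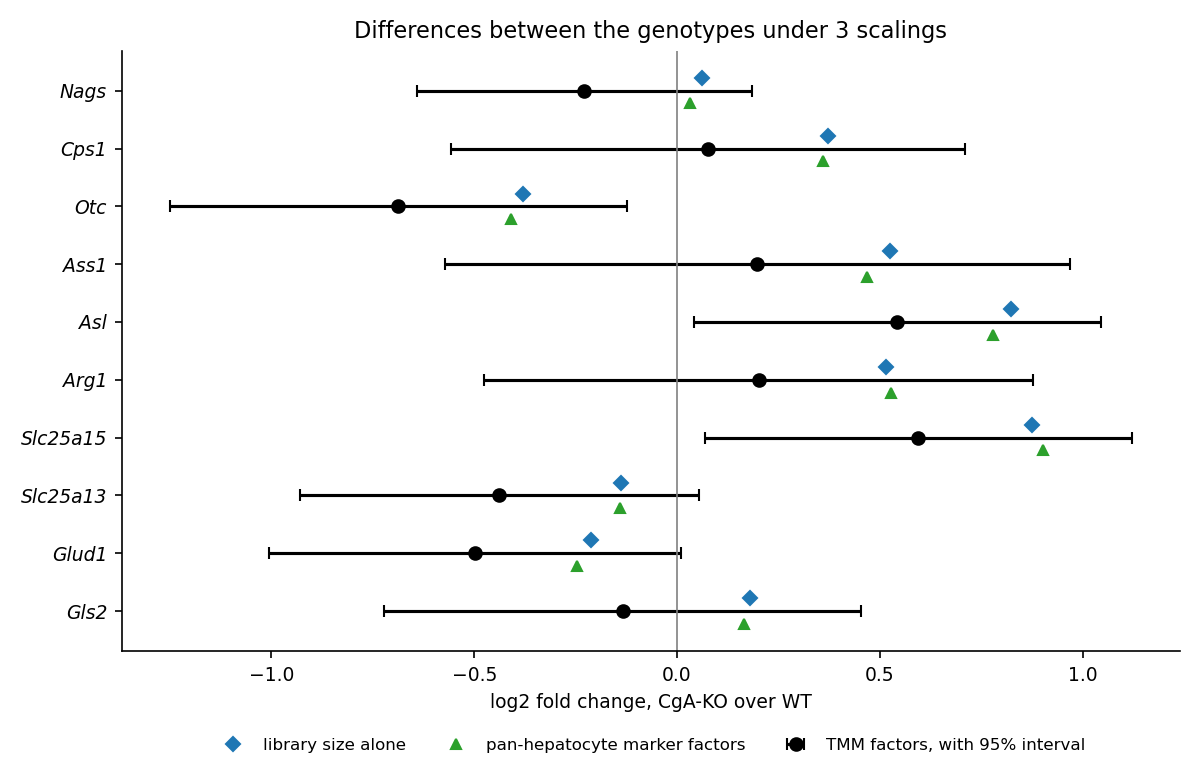
Log2FC of CgA-KO over WT (x axis) for the 10 genes with TMM factors (circles, with 95% intervals), with library size alone (diamonds) and with pan-hepatocyte marker factors (triangles). Both other scalings shift all genes to the right, and Nags and Gls2 cross 0 under them while the other 8 keep their sign.

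Library size alone raised the log2FC values of the 10 along with the median of all genes, which rose by 0.27, and scaling to the pan-hepatocyte markers raised that median by 0.24. With TMM the number of genes without overlap was 5, with library size alone it was 7 (these 5 with Ass1 and Arg1), and with the pan-hepatocyte scaling it was 3 (Otc lower, Asl and Ass1 higher). The share over all genes, 33.6%, was taken with TMM only. The counts of 7 and 3 have no such share beside them and are not read as results about the 10 genes. Across all genes tested, TMM gave 1193 calls higher and 533 lower, and the pan-hepatocyte scaling 832 and 109, and library size alone 1293 and 200. Under the pan-hepatocyte scaling Otc had a log2FC of -0.41 (edgeR adjusted p = 0.417) and Asl one of 0.78 (adjusted p = 0.0802), and Slc25a15 had one of 0.90 (adjusted p = 0.156). None was called.

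Ratios of counts between genes of one library do not depend on the scaling and were therefore read along the pathway. Of 8 such ratios, 5 did not overlap between the genotypes. The ratios share genes, and 4 of these 5 hold a gene that was itself without overlap, so the count is not a further result. Otc to Cps1, consecutive mitochondrial steps, stood at 0.177, 0.208 and 0.166 in WT and at 0.0837, 0.115 and 0.136 in CgA-KO livers. Ass1 to Otc, the next step over the membrane, stood at 5.97, 7.55 and 6.88 in WT and at 13.4, 14.7 and 10.4 in CgA-KO livers, a ratio 1.89 times as high in the mean. Each CgA-KO liver thus held less Otc for its Cps1 and more Ass1 for its Otc than any WT liver. Cps1 to Nags was 32.7 ± 2.89 in WT and 40.5 ± 4.18 in CgA-KO livers, also without overlap.

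Between the carriers, Slc25a15 to Slc25a13 was 0.953, 0.744 and 0.791 in WT and 1.79, 1.36 and 1.82 in CgA-KO livers, or 2.00 times as high in the mean. Per kilobase of transcript, the aspartate carrier was above the ornithine carrier in the WT mean (64.0 against 47.5 CPM per kilobase) and below it in the CgA-KO mean (47.3 against 71.8). Gls2 to Glud1 was 0.217 ± 0.0499 in WT and 0.284 ± 0.0175 in CgA-KO livers, without overlap. Asl to Ass1 (0.182 ± 0.0538 and 0.215 ± 0.0155) and Arg1 to Asl (2.98 ± 0.734 and 2.44 ± 0.751) overlapped. Asl to Otc, a pair singled out after its values were seen, was 1.21 ± 0.222 in WT and 2.75 ± 0.413 in CgA-KO livers. Ratios are descriptions here, with no test.

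**Figure D3:**
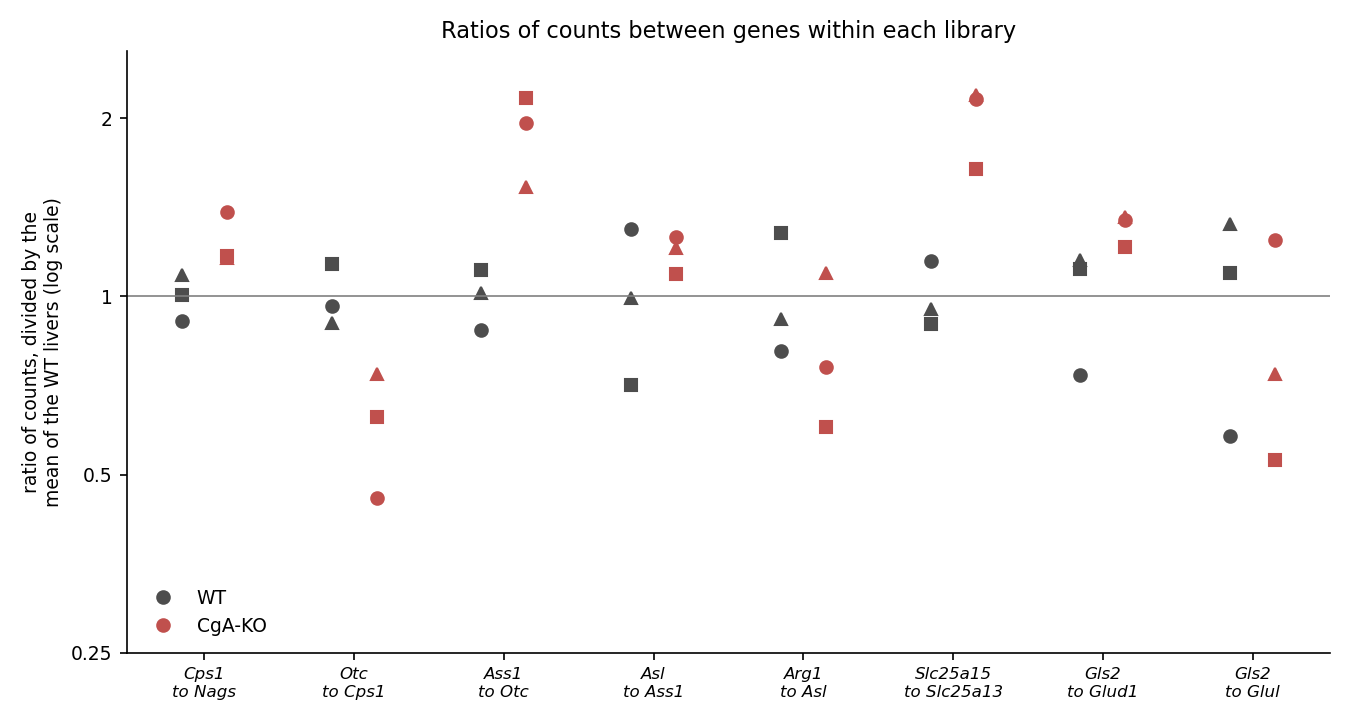
Ratio of counts between genes within each library, divided by the mean of the WT livers (y axis, log scale; WT grey, CgA-KO red; circles, squares and triangles are replicates 1, 2 and 3). Otc to Cps1 is lower, and Cps1 to Nags, Ass1 to Otc, Slc25a15 to Slc25a13 and Gls2 to Glud1 are higher, in all 3 CgA-KO livers.

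Levels were compared between genes per length, as TMM-normalized CPM per kilobase of the longest protein-coding transcript that GENCODE gives for GRCm38. In WT livers Ass1 led with 1289 ± 483 CPM per kilobase, followed by Arg1 (749 ± 235), Cps1 (308 ± 67.2) and Glud1 (277 ± 34.2), of which Ass1 and Arg1, and Cps1 and Glud1, overlapped. Asl (152 ± 17.9) followed without overlap. Otc (105 ± 28.4) came next, its highest liver level with the lowest for Asl (132.09 against 132.10 CPM per kilobase). Then came Gls2 (80.3 ± 24.9), Slc25a13 (64.0 ± 13.2) and Slc25a15 (47.5 ± 4.74), each overlapping its neighbour, Gls2 also with Otc. Nags closed the order at 25.6 ± 3.84 CPM per kilobase, below every other gene.

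In CgA-KO livers the first 3 places and the last were held by the same genes, with Ass1 at 1479 ± 284, Arg1 at 861 ± 149, Cps1 at 325 ± 54.8 and Nags at 21.9 ± 2.08 CPM per kilobase. Asl (222 ± 29.0) and Glud1 (196 ± 13.4) changed places, with overlapping ranges. Otc moved from place 6 to place 8 (65.3 ± 5.52) and Slc25a15 from place 9 to place 7 (71.8 ± 16.1), also with overlap between these neighbours.

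**Figure D4:**
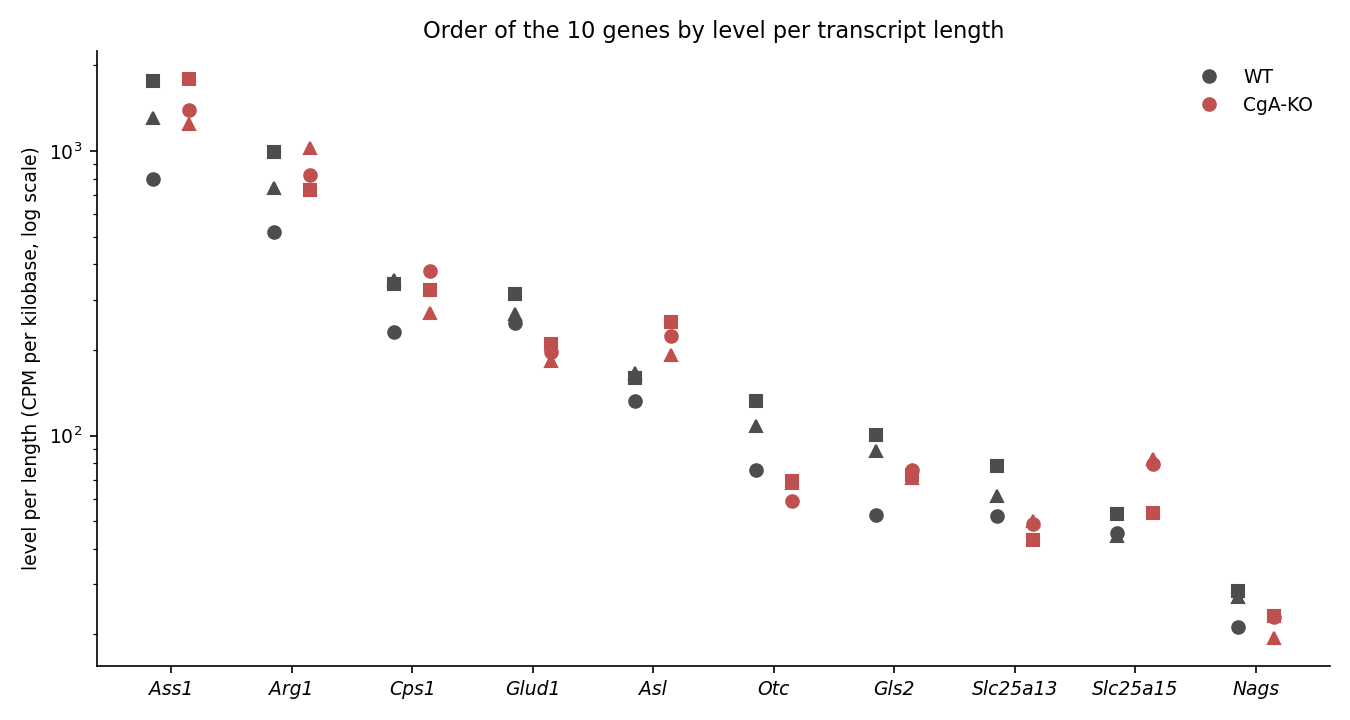
Level per transcript length (y axis, TMM-normalized CPM per kilobase, log scale) of the 10 genes in the order of their WT means, for 3 WT (grey) and 3 CgA-KO livers (red), with circles, squares and triangles for replicates 1, 2 and 3. Ass1, at 1289 CPM per kilobase in the WT mean, leads in both genotypes and Nags, at 25.6, is last in both.

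Summed over the 6 enzymes of the cycle, WT replicates 1, 2 and 3 held 3985, 7189 and 6041 CPM, and CgA-KO replicates 1, 2 and 3 held 6451, 6788 and 5840 CPM. The WT range enclosed the CgA-KO range, and WT replicate 1 was the lowest library of all. That liver was also the lowest for Cps1, Ass1, Asl, Arg1 and Gls2 among all 6.

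Around the 10 genes, a list of 28 genes of nitrogen handling was read in the same fit: transaminases, the glutamine, ornithine, proline and arginine branches, transporters, bicarbonate supply and sirtuins. Of its 26 genes tested, 4 rose and 1 fell, and the median log2FC was 0.14. Across all genes tested, 8.6% were called higher and 3.84% lower. Got1, the cytosolic aspartate transaminase, had the smallest adjusted p-value of the list and rose from 87.6, 125 and 111 CPM in WT to 321, 357 and 300 CPM in CgA-KO livers. With means of 108 ± 18.7 and 326 ± 28.6 CPM, its log2FC was 1.60 (SE 0.219, edgeR adjusted p = 0.00513), and it was called under every alternative run. Its mitochondrial partner Got2 was at 334 and 288 CPM in the mean (log2FC -0.21, edgeR adjusted p = 0.591).

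Car5a, the mitochondrial carbonic anhydrase that supplies bicarbonate to CPS1, fell. It was at 44.6, 64.2 and 56.0 CPM in WT, and at 27.7, 28.7 and 19.9 CPM in CgA-KO livers, without overlap. The log2FC was -1.11 (SE 0.212, edgeR adjusted p = 0.0138), and the call was lost without WT replicate 3 (adjusted p = 0.0639) and with the pan-hepatocyte scaling (-0.86, adjusted p = 0.110).

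Aldh18a1, which starts proline and ornithine synthesis from glutamate, rose from a low level, 1.20 ± 0.790 CPM, to 6.48 ± 1.84 CPM, a log2FC of 2.51 (SE 0.490, edgeR adjusted p = 0.0149). It rested on 12 to 24 counts per library in WT and on 113 to 270 in CgA-KO livers, and lost the call without WT replicate 3 or CgA-KO replicate 2.

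Glul, which makes glutamine from ammonia in pericentral cells, was at 896, 913 and 659 CPM in WT, and at 604, 1364 and 956 CPM in CgA-KO livers. The ranges overlapped, and CgA-KO replicate 2 stood highest. The log2FC was 0.24 (SE 0.325, interval from -0.49 to 0.98, edgeR adjusted p = 0.666). Oat, the pericentral enzyme that breaks down ornithine, was at 489, 870 and 477 CPM in WT, and at 1010, 1112 and 1033 CPM in CgA-KO livers. The genotypes did not overlap, and the log2FC of 0.78 (SE 0.290, edgeR adjusted p = 0.113) was called by DESeq2 (adjusted p = 0.0479), with library size alone (1.10, adjusted p = 0.0189), with the pan-hepatocyte scaling (1.07, adjusted p = 0.0298) and without WT replicate 2 (1.12, adjusted p = 0.0353). Rhbg, an ammonium transporter of pericentral cells, rose from 2.94 ± 1.76 to 10.7 ± 5.19 CPM (log2FC 1.90, edgeR adjusted p = 0.0440). Rhbg lost the call in 4 of the 6 fits with a library left out, with library size alone (adjusted p = 0.0554), with the pan-hepatocyte scaling (adjusted p = 0.0600), with the filter on a total of at least 1 count (adjusted p = 0.0689) and with the replicate block (edgeR adjusted p = 0.0902).

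Of 14 regulators and classical hormone-responsive genes of amino acid use, 0 passed in edgeR, where 6 were under 0.05 before adjustment. Across all genes tested, 4032 of 13867 were under 0.05 before adjustment in that fit. DESeq2 called 4 of the 14 and limma-voom 1. Nr1h4, the bile acid receptor FXR, averaged 183 ± 21.6 CPM in WT against 110 ± 20.3 CPM in CgA-KO livers (log2FC -0.73, edgeR adjusted p = 0.0577), and was called by DESeq2 (adjusted p = 0.00685) and limma-voom (adjusted p = 0.0487). Gcgr, the glucagon receptor through which fasting acts on the cycle, was at 249, 181 and 229 CPM in WT, and at 136, 143 and 133 CPM in CgA-KO livers. The log2FC was -0.68 (SE 0.204, edgeR adjusted p = 0.0618), without overlap, and DESeq2 called it (adjusted p = 0.00477). The median of the list was -0.11.

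Zonation markers were then read to place the 10 genes among periportal hepatocyte genes. Of 16 periportal markers other than the 10 genes, 2 rose and 0 fell, with a median log2FC of -0.090. Those were Gldc, of the glycine cleavage system (48.6 ± 16.0 and 106 ± 27.5 CPM, log2FC 1.12, edgeR adjusted p = 0.0430), and Ctsc, a lysosomal protease that macrophages also express (62.8 ± 3.92 and 183 ± 33.4 CPM, 1.54, adjusted p = 0.00484). Gldc lost the call in 5 of the 6 fits with a library left out and with the replicate block (adjusted p = 0.0868). Of 16 pericentral markers, Rhbg rose and Cyp7a1, the rate-limiting enzyme of bile acid synthesis, fell (396 ± 40.0 and 129 ± 56.2 CPM, log2FC -1.63, edgeR adjusted p = 0.0149), with a median of 0.045. Cyp7a1 lost the call with the pan-hepatocyte scaling (-1.30, edgeR adjusted p = 0.103) and without WT replicate 3 (adjusted p = 0.0691). In either list the 2 edgeR calls of 16 were near the 12.4% called over all genes tested. DESeq2 called 5 of the periportal and 6 of the pericentral markers, and 2592 of the 19693 genes in its fit. The genotypes did not overlap in 6 of the 16 periportal and 8 of the 16 pericentral markers, against 33.6% of all genes tested. Summed levels of the periportal markers ran from 9781 to 12170 CPM in WT and from 8466 to 11310 CPM in CgA-KO livers, and those of the pericentral markers from 8565 to 13051 and from 7552 to 13847 CPM.

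**Figure D5:**
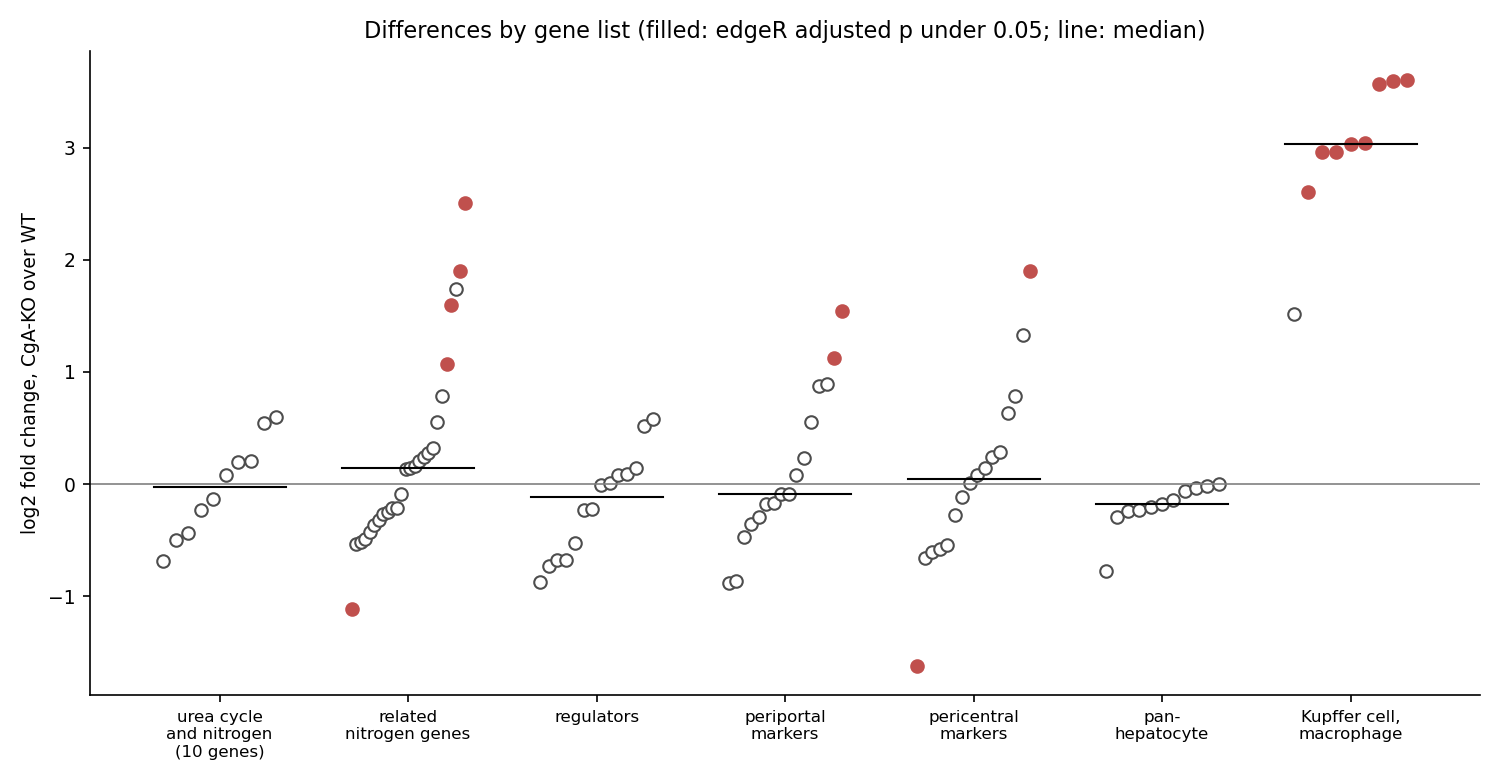
Log2FC of CgA-KO over WT (y axis, TMM scaling) for each gene tested of 7 lists; filled circles had an edgeR adjusted p-value under 0.05 and lines mark medians. The 10 urea cycle and nitrogen genes lie between -0.69 and 0.59 with 0 filled, while the Kupffer cell and macrophage markers have a median of 3.04.

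Markers of other cells differed more. Of 9 Kupffer cell and macrophage markers, 8 rose, with a median log2FC of 3.04 over the 9. Their summed level ran from 113 to 296 CPM in WT and from 1081 to 1782 CPM in CgA-KO livers. Marco, the marker not called, was at 1.34, 4.47 and 14.3 CPM in WT replicates 1, 2 and 3. It was at 0.139, 57.4 and 1.08 CPM in CgA-KO replicates 1, 2 and 3 (log2FC 1.52, edgeR adjusted p = 0.632), high in replicate 2 alone. None of the 9 was at 0 in every library, and Clec4f and Timd4, which define Kupffer cells, rose by 2.96 and 3.57 on the log2 scale. Of the 6 monocyte and neutrophil markers tested, 5 rose. The summed level of all 7 listed, the untested Mpo included, ran from 5.80 to 12.3 CPM in WT livers and was 41.5, 348 and 59.5 CPM in CgA-KO replicates 1, 2 and 3. Of 6 T, NK and B cell markers, 3 rose (Cd3e, Cd3g and Nkg7), with sums from 3.53 to 26.8 CPM in WT and of 28.8, 63.5 and 23.5 CPM in CgA-KO replicates 1, 2 and 3. The B cell markers Cd79a and Ms4a1 had log2FC values of 0.011 and -0.035, and were highest in WT replicate 1 (10.7 and 10.9 CPM). CgA-KO replicate 2 thus stood apart from the other CgA-KO livers in the sums of both lists. For Cd79a and Ms4a1 the highest CgA-KO liver was replicate 1 (8.77 and 8.31 CPM). Stellate and fibroblast markers had 2 called higher of 6, endothelial markers 1 higher and 1 lower of 5, erythroid markers 1 higher and 1 lower of the 4 tested, and cholangiocyte markers 0 of 5 in edgeR, with 1 under 0.05 before adjustment. Without CgA-KO replicate 2, 7 of the 9 Kupffer cell and macrophage markers, 3 of the 6 monocyte and neutrophil markers, and 2 of the 6 T, NK and B cell markers were called by edgeR. In that fit 0 of the 6 stellate and fibroblast and 0 of the 4 erythroid markers were called, with 2 and 4 of them under 0.05 before adjustment, and the count among the 10 urea cycle and nitrogen genes was again 0. The 11 pan-hepatocyte markers all had log2FC values below 0 with TMM, with a median of -0.17. The part of other cells in the values of the urea cycle genes was not tested.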

How the data were processed

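Poly(A) RNA-seq was run on 6 livers, 3 per genotype, one library per mouse. The authors quantified reads at the transcript level with Salmon 1.4.0 against the GRCm38 transcriptome and deposited one table of whole-number counts by gene symbol. How transcripts were summed to genes is not given in the sources used here. All 6 columns matched a sample by title, with 0 left without one. Replicates of a genotype differed by more than sampling noise (chi-square over its degrees of freedom 24.3 to 155) and were kept apart.

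Genes passing filterByExpr of edgeR 4.0.16 (R 4.3.3, minimum count 10) were normalized by TMM (trimmed mean of M-values) and tested with robust quasi-likelihood fits, two-sided, and p-values were adjusted by Benjamini-Hochberg over every gene tested. Standard errors are the log2 fold change over the square root of F, an approximation, and intervals are at 95%. A depth of 3 counts, the floor of detection, was 0.0951 to 0.269 CPM, for counting error only. An exact permutation test of 3 against 3 cannot go under 0.1 and was not used. Alternatives were DESeq2 1.42.0, limma-voom (limma 3.58.1), other scalings, filters and thresholds, a replicate block and leaving out each library. The members and all lists were chosen with earlier results of these data known. Named genes outside the 10 are Glul, Oat, the called genes of each list (at most 6) or else the 2 with the smallest p, and the few singled out after their values were seen (Got2, Clec4f, Timd4, Marco, Cd3e, Cd3g, Nkg7, Cd79a and Ms4a1). A called gene of the related nitrogen list stays in the counts and is not reported here by name. Positions and lengths are from GENCODE, promoters from RefSeq. The statistics were tested on simulated data, where edgeR, DESeq2 and limma-voom each missed most changes of the smaller size simulated and made a share of false calls above the threshold, the largest with DESeq2. The check without CgA-KO replicate 2 for the cell type markers was chosen after seeing the data. Figures were drawn with matplotlib 3.10.9.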

Additional observations from a re-analysis of the deposited data

How the results depend on the processing

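Leaving out each library in turn, with 2 livers left in one genotype, gave 394 (without WT replicate 3) to 2126 (without WT replicate 1) genes called across the table, 0 to 1 of the 10 genes, 1 to 5 of the related nitrogen genes, 0 to 1 of the regulators, 1 to 2 of the periportal and 0 to 3 of the pericentral markers, and 5 to 7 of the 10 genes without overlap. With DESeq2 these counts were 2592, 2, 6, 4, 5 and 6, against 1726, 0, 5, 0, 2 and 2 in edgeR. DESeq2 was fitted to the 19693 genes with a total of at least 1 count, and edgeR to 13867 genes. With that filter on a total of at least 1 count, edgeR called 1620 genes. The pan-hepatocyte scaling gave 941 genes, 3 related nitrogen genes, 1 pericentral marker and 3 of the 10 genes without overlap. A threshold of 0.01 gave 360 genes, 1 related nitrogen gene, 1 periportal and 0 pericentral markers. Library size alone called 2 of the 10 genes and limma-voom 1 regulator. The filter on a total of at least 1 count left 1 pericentral marker. The alternatives for the count without overlap were chosen after seeing the data, and no share over all genes was taken under them. Leaving out a library could not bring that count under 5, since a gene separated in all livers stays separated when a liver is dropped. Its range of 5 to 7 is therefore no check on the 5. The cause of these changes was not tested.

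The replicate numbers are shared between the genotypes, but same-numbered libraries did not deviate together (correlations from -0.0659 to 0.199), so they were not treated as pairs. With the replicate block, 1498 genes were called, and 1 periportal and 1 pericentral marker.

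Leaving out one library turned the direction of Cps1 (range -0.060 to 0.22), Ass1 (-0.016 to 0.49), Gls2 (-0.33 to 0.056) and Glul (-0.037 to 0.53). Library size alone and the pan-hepatocyte scaling turned Nags (0.061 and 0.031) and Gls2 (0.18 and 0.17). None of these 5 genes was called in any fit. Of the log2 fold changes of the genes taken by the naming rule under alternatives, 276 kept direction and side of the threshold, 32 lost the call, 13 gained it and 9 turned.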
